A study of Mus musculus with 6 samples.

Results

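Integrins and laminins are the adhesion receptors and basement membrane proteins of a tissue, and this account covers their chains in brown adipose tissue (BAT) of wild-type and Letmd1 KO mice. The members were the rows of the deposited gene counts whose symbols name an integrin alpha chain, an integrin beta chain or a laminin chain. The symbols matched 37 rows, of which Itgb8 was at 0 in every mouse and was dropped. The remaining 36 members, 25 integrin chains and 11 laminin chains, were among 17694 rows with counts. The question was which chains differed in level between the genotypes, and whether the integrins of white blood cells differed in another way than the rest.

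BAT came from 3 wild-type and 3 Letmd1 KO mice, all male, 5 weeks old and of the C57BL/6N strain. The KO mice were whole-body nulls from 1 clone of embryonic stem cells. Their knockout-first allele carries a lacZ and neomycin resistance cassette in an intron of Letmd1, a gene for a mitochondrial matrix protein. RNA was sequenced from the 3′ end with QuantSeq, so a gene's count does not scale with transcript length and levels of different chains can be set side by side. Levels are given as CPM, the counts after TMM scaling to libraries of equal size.

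Letmd1 itself counted 5658, 6490 and 5266 reads in wild type and 0, 0 and 1 in KO, as the labels say. Total counts lay between 6669577 and 14574273 per mouse, and a floor of 3 counts was between 0.176 and 0.397 CPM, for counting error only. Rows were tested with the quasi-likelihood test of edgeR, adjusted by Benjamini-Hochberg. Of 12995 rows tested, 23.7% were higher and 22.3% lower in KO mice, with 0.05 as the threshold for the adjusted p. Brown adipocyte markers summed to between 18178 and 19651 CPM in wild-type and between 4356 and 5357 CPM in KO mice. Skeletal muscle markers stood apart in some libraries, with 85.5, 526 and 97.8 CPM in the wild-type mice and 483, 375 and 1370 CPM in the KO mice. In bulk tissue, fewer cells of a type and less RNA per cell cannot be told apart. Nothing in the sources ties a mouse to a litter or day, and the p-values measure the spread between these samples.

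An integrin is a pair of an alpha and a beta chain that spans the cell membrane, binds matrix or another cell outside, and couples to the actin cytoskeleton through talin and kindlin inside. The beta2 integrins, with alpha4 and beta7, serve white blood cells in adhesion and migration, while most other cells hold to the matrix with beta1 integrins. A laminin is a trimer of an alpha, a beta and a gamma chain. Laminins form the basement membrane that surrounds each adipocyte, capillary, nerve and muscle fibre, and laminins with the alpha4 chain are typical of fat and of vessels.

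Among the members, 32 passed the filter on low counts, and 14 were higher, 3 lower and 15 not past the threshold in Letmd1 KO BAT. That is 43.8% higher and 9.38% lower, beside 23.7% and 22.3% of all rows tested. The median log2 fold change, KO minus wild type, was 0.57 over the tested members and 0.03 over all rows tested. The wild-type and KO values did not overlap for 19 of the 32, beside 57.3% of all rows. Itga2, Itga8, Itgb6 and Lama3 were too low to be tested, with no value above 1.70 CPM in any mouse.

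The integrins of white blood cells and the other integrins differed in size of change. All 8 leukocyte chains passed the threshold, 6 higher (75%) and 2 lower (25%), with a median log2 fold change of 2.37. Of 14 other integrin chains tested, 4 were higher (28.6%) and 1 lower (7.14%), with a median of 0.43. Of all rows tested, 23.7% were higher and 22.3% lower. The 28.6% higher of the others and the 25% lower of the leukocyte chains are near those shares. The median log2 CPM of the leukocyte chains minus that of the others was -0.78, -1.22 and -1.55 in wild-type mice, against 0.77, 1.16 and 0.47 in KO mice. The median of the leukocyte chains thus lay below that of the others in each wild-type mouse and above it in each KO mouse. Single chains departed from this. Itga4 had a mean of 34.4 CPM in wild type, above most other integrins, where all leukocyte chains without Itgad summed to 49.8 CPM. Leaving out Itgad, whose reads are uncertain, left the difference of the median fold changes at 1.83, beside 1.94 with it.

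**Figure D1:**
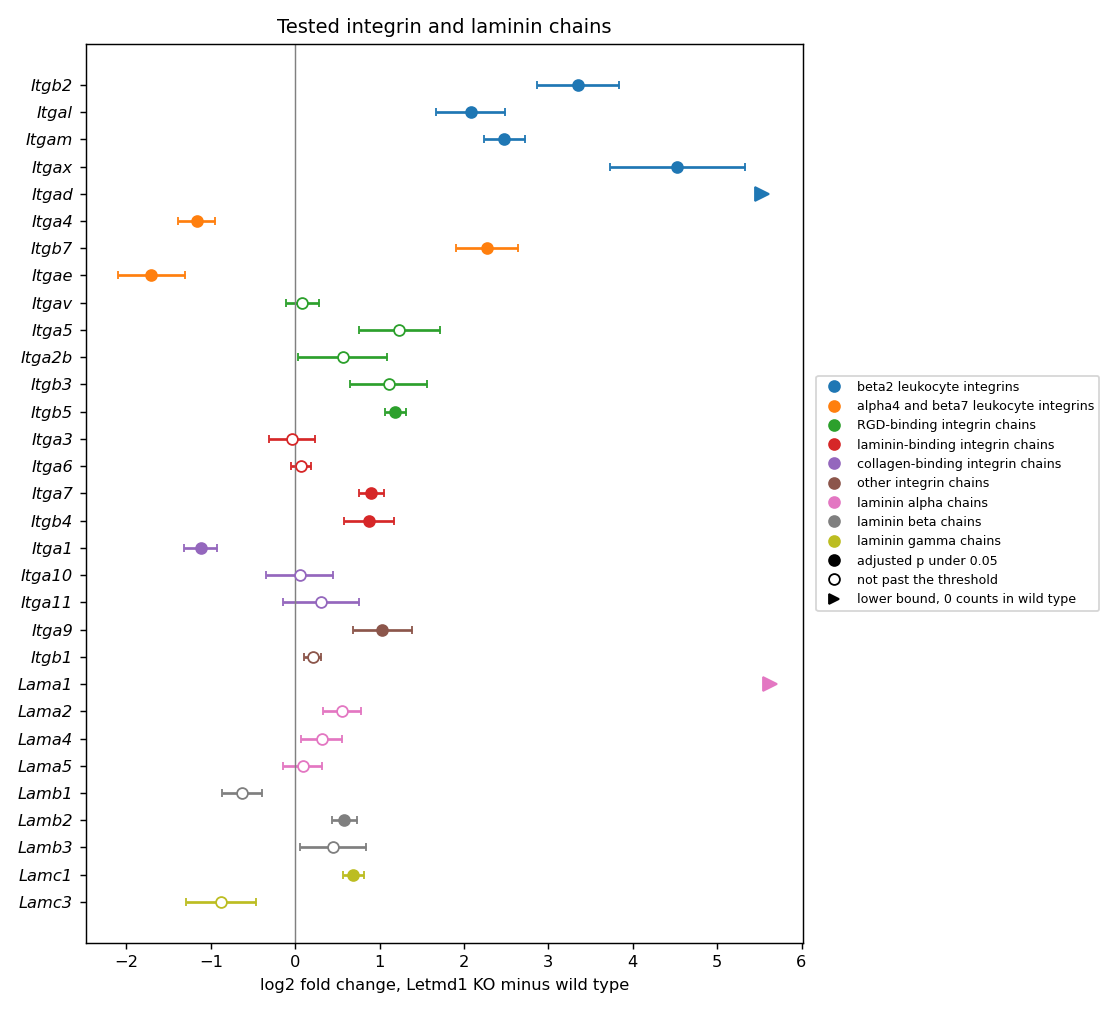
Log2 fold change (Letmd1 KO minus wild type) of 31 of the tested chains, with bars of 1 standard error and colours for families. Filled points passed an adjusted p of 0.05, open points did not, and triangles mark lower bounds for Itgad and Lama1, which had 0 counts in every wild-type mouse. The 5 beta2 chains, Itgb7 and Lama1 lie at or beyond 2.08, and Itga4, Itgae and Itga1 are the filled points to the left of 0.

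The 5 chains of the beta2 family were all higher in Letmd1 KO BAT, beside 23.7% of all rows tested. The reads of 1 of them, Itgad, are uncertain, as given below. Itgb2 (chromosome 10, 77530252 to 77565708 in GENCODE on GRCm38, plus strand) encodes the beta2 chain that every receptor of this family shares. Its level was 5.71, 1.91 and 4.04 CPM in the wild-type mice and 32.0, 67.1 and 21.3 CPM in the KO mice. The lowest KO mouse was above the highest wild-type mouse, and KO replicate 2 was the highest of all. The log2 fold change was 3.35 ± 0.49 (SE, adjusted p = 0.000513) and 2.77 without that mouse.

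Itgam encodes CD11b, the alpha chain of complement receptor 3 on macrophages, monocytes and neutrophils. It lies on the plus strand of chromosome 7 between 128062640 and 128118491, next to Itgax and Itgad. Itgam was at 5.39, 3.07 and 5.22 CPM in wild-type and 25.4, 29.6 and 21.4 CPM in KO mice. The 3 KO values lay close together, and the log2 fold change was 2.48 ± 0.24 (SE, adjusted p = 5.53e-05).

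Itgax encodes CD11c, a chain of dendritic cells and of macrophages in fat, and had the steepest change among chains with counts in both genotypes. It was at 1.51, 0.318 and 1.43 CPM in the wild-type mice and 11.8, 54.3 and 9.998 CPM in the KO mice. The groups did not overlap, but KO replicate 2 stood far above the other KO mice. The log2 fold change was 4.53 ± 0.80 (SE, adjusted p = 0.00158) with all mice and 3.33 (adjusted p = 0.00061) without KO replicate 2. Itgal, the CD11a chain of LFA-1 on T cells and most other leukocytes, was lower in level. Its values were 1.40, 1.48 and 1.04 CPM in wild-type and 4.73, 8.47 and 3.88 CPM in KO mice, again highest in KO replicate 2. Itgal rose by 2.08 ± 0.41 on the log2 scale (SE, adjusted p = 0.00278).

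The makeup of the family's alpha chains also differed between the genotypes, a comparison chosen after the values were seen. Itgax made up 18.2%, 6.52% and 18.6% of the summed counts of Itgal, Itgam and Itgax in the wild-type mice. Those shares rest on only 14, 3 and 11 Itgax counts. In the KO mice Itgax made up 28.1%, 58.7% and 28.3%, from 107, 410 and 170 counts. Itgam was the most counted of these alpha chains in every mouse but KO replicate 2, where Itgax was.

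Itgad, which encodes the alphaD chain of some tissue macrophages, had no counts in any wild-type mouse and 160, 86 and 320 counts in the KO mice. Its KO level was 17.6, 11.4 and 18.8 CPM, with a mean at least 46.3-fold above the mean floor of the wild-type mice (adjusted p = 2.58e-05). In RefSeq, Itgad ends at position 128205504 of chromosome 7, inside the end of Cox6a2, a cytochrome c oxidase subunit on the other strand. Cox6a2 starts at 128205435, so that 70 bases are shared. The GENCODE span of Itgad runs further, to 128223816, past the other end of Cox6a2 at 128206366 in RefSeq. The GENCODE exons of the 2 genes also share 70 bases. The wild-type mice gave 1, 37 and 0 counts for Cox6a2 and the KO mice 2443, 1331 and 5500. The Itgad counts were between 5.82% and 6.55% of the Cox6a2 counts in the KO mice. Unlike the other beta2 chains, Itgad was lowest in KO replicate 2, as Cox6a2 was. The use of strand in counting is not given in the sources used here, and reads of the 2 genes cannot be told apart.

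**Figure D2:**
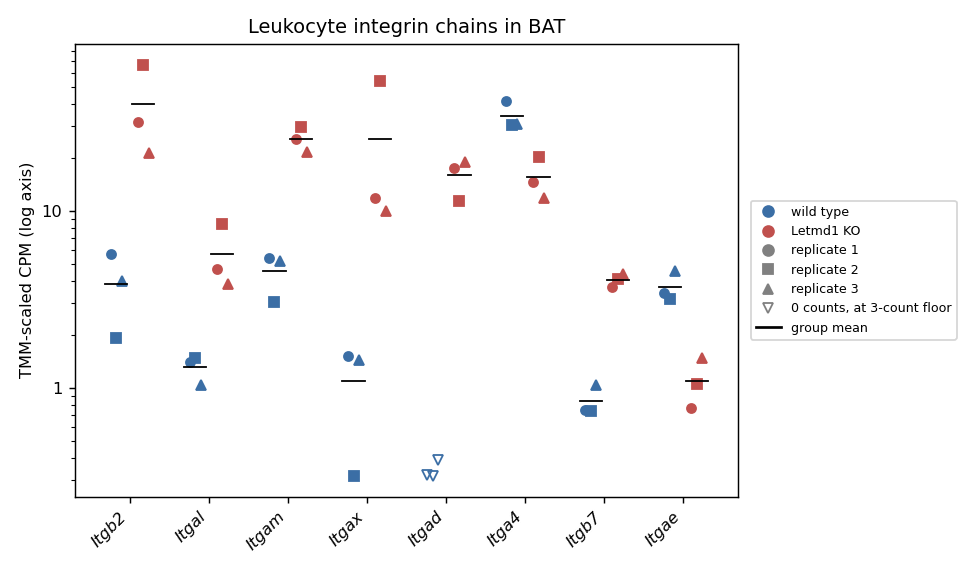
TMM-scaled CPM (log axis) of the 8 leukocyte integrin chains in 3 wild-type (blue) and 3 Letmd1 KO (red) mice, with the symbol shape giving the replicate number and a line at each group mean. The beta2 chains and Itgb7 are higher in every KO mouse, and Itga4 and Itgae are lower. Itgad reads cannot be told apart from those of Cox6a2. Open triangles mark 0 counts and sit at the floor of 3 counts.

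The bases before the start of Itgam are shown because it is the beta2 chain with the most even rise and has a promoter in the RefSeq table (build GRCm38.p6), which held 22 of the 36 members. Its 250 bases before the start hold 2 matches to GAGGAA, the core letters of sites for the myeloid factor PU.1, searched on both strands. The matches are in capitals in these windows of 30 bases from the plus strand, chr7:128062544-128062573 and chr7:128062610-128062639. The second shows the reverse complement, since its match is on the other strand.
Itgam upstream: tgttttctcccgGAGGAAggctacagaggg
Itgam near start: gtctctcatagctttTTCCTCatacttctc
The letters GAGGAA occur in 23.3% of all 32851 windows of that length and in 13 of the 22 members. Members were counted per gene, with a match in any of its windows, and a gene can have several windows. The percentages of windows, here and below, are therefore no baseline for the counts of members. Of the 4 leukocyte chains in the table (Itgam, Itgax, Itga4 and Itgb7), Itgam alone held a match. The GC box GGGCGG occurs in 32.7% of windows and in 8 of the 22 members, Itgam and Itga4 among them. TGATGNAA, letters of sites for ATF4 with a C/EBP factor, occurs in 3.45% of windows and in 0 of the 22. A match is a description of letters and was not tested as a site.

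The alpha4 and beta7 chains pair with each other and with other partners on lymphocytes, mast cells and eosinophils, and they did not move together. Itga4 (chromosome 2, 79255426 to 79333123, plus strand) was at 41.7, 30.6 and 30.9 CPM in the wild-type mice and 14.5, 20.1 and 11.9 CPM in the KO mice. All KO mice lay below all wild-type mice, and Itga4 fell by 1.17 on the log2 scale (SE 0.22, adjusted p = 0.00202). Its 3′ end overlaps Cerkl on the other strand, by 624 bases of the RefSeq spans. Cerkl had 49, 26 and 16 counts in wild-type and 3, 4 and 17 in KO mice, well under the 132 to 387 counts of Itga4.

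Itgb7 was low in both genotypes, at 0.755, 0.742 and 1.04 CPM in wild-type and 3.74, 4.10 and 4.41 CPM in KO mice. It rose by 2.27 ± 0.37 on the log2 scale (SE, adjusted p = 0.000977), with KO mice close to each other. Itgae, the CD103 chain that pairs with beta7 on tissue lymphocytes and some dendritic cells, went the other way. It was at 3.45, 3.18 and 4.56 CPM in wild-type and 0.769, 1.06 and 1.47 CPM in KO mice, without overlap. Itgae fell by 1.70 on the log2 scale (SE 0.39, adjusted p = 0.00653). With the muscle marker level of each mouse as a covariate, its adjusted p was 0.0772. Itgae had only 7, 8 and 25 counts in the KO mice. Gsg2, a gene on the other strand inside Itgae that shares no exon bases with it, had 14, 9 and 15 counts there.

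Markers of white blood cells moved in the same libraries. The 13 macrophage markers summed to between 179 and 250 CPM in the wild-type mice and between 1441 and 3547 CPM in the KO mice, and all 13 were higher. Trem2 had 1, 0 and 0 counts in wild-type and 111, 378 and 120 in KO mice, and the other 12 had counts in every mouse. Itgb2, Itgal, Itgam and Itgax together came to 14.0, 6.79 and 11.7 CPM in wild-type and 73.8, 159 and 56.6 CPM in KO mice. This sum was highest in KO replicate 2 and lowest in wild-type replicate 2, the same mice in which the macrophage sum was highest and lowest. As a percentage of the macrophage sum it was 4.76 ± 0.996 (SD, n = 3) in wild-type and 4.26 ± 0.30 (SD, n = 3) in KO mice, with overlap. Itgam alone was 2.01% ± 0.26 of the macrophage sum in wild-type and 1.27% ± 0.38 in KO mice (SD, n = 3), without overlap. Both percentages depend on the markers chosen. Mean Lgals3 went from 8.38 to 562 CPM and mean Gpnmb from 2.81 to 373 CPM, with 1014 CPM in KO replicate 2. Folds of mean CPM ranged over the markers from 2.13 (Cd14) to 643 (Trem2), with 4.21 for Csf1r, beside 5.59 for Itgam. The Trem2 fold rests on 1 wild-type count and has no firm size. The part of white blood cells in the change of each chain was not tested.

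**Figure D3:**
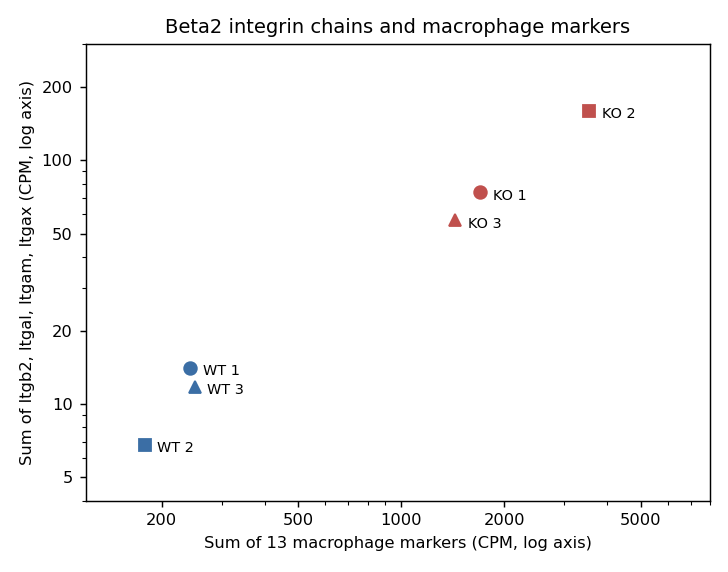
Summed CPM of Itgb2, Itgal, Itgam and Itgax against the summed CPM of 13 macrophage markers in each mouse, both on log axes. Wild-type mice (blue) lie between 6.79 and 14.0 CPM on the vertical axis and KO mice (red) between 56.6 and 159 CPM, and KO replicate 2 is highest on both axes.

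Other white blood cell lists moved less. Dendritic cell markers summed to between 7.85 and 9.65 CPM in wild-type and between 22.1 and 26.5 CPM in KO mice, with 4 of 7 higher. Mast cell markers summed to between 17.0 and 51.9 CPM and between 78.2 and 87.9 CPM, with 4 of 5 higher. T and NK cell markers summed to between 5.17 and 11.2 CPM in wild-type and between 10.1 and 20.6 CPM in KO mice, with Cd4 and Nkg7 higher among 4 tested, but 0 past the threshold without wild-type replicate 1, wild-type replicate 2 or KO replicate 2, and 1 without KO replicate 1 or 3. B cell markers stayed at or below 2.78 CPM in every mouse, with Pax5 at 0 in all. Neutrophil markers ranged from 1.48 to 46.5 CPM in wild-type and from 0.9998 to 41.2 CPM in KO mice. Of their 3 tested genes 0 passed the threshold in edgeR's test, and the lowest unadjusted p was 0.163, for Retnlg. Their part in the changes of Itgal, Itgam, Itgb7 and Itgae was not tested.

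Among integrin chains that bind the RGD motif of fibronectin, vitronectin and related proteins, Itgb5 alone passed the threshold of 5 tested. That is 20% higher, beside 23.7% of all rows tested. Itgb5 (chromosome 16, 33829665 to 33949338, plus strand), the beta chain of the vitronectin receptor alphaVbeta5, was at 26.3, 23.7 and 22.8 CPM in the wild-type mice. It was at 53.5, 59.0 and 53.5 CPM in the KO mice. Both groups were tight and far apart, and Itgb5 rose by 1.19 ± 0.12 on the log2 scale (SE, adjusted p = 7.86e-05). Its only alpha partner, Itgav, had a log2 fold change of 0.08 ± 0.20 (SE, adjusted p = 0.754), with levels between 12.4 and 19.7 CPM over all mice.

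The fibronectin receptor chain Itga5 was at 0.807 ± 0.363 CPM in wild-type and 1.94 ± 0.481 CPM in KO mice (SD, n = 3), with a log2 fold change of 1.23 (adjusted p = 0.0619). Itgb3, which pairs with Itgav or with the platelet chain Itga2b, had 1.11 (adjusted p = 0.0719), and Itga2b had 0.56 (adjusted p = 0.415). These 3 chains stayed between 0.391 and 5.29 CPM. Itgb3 and Itga2b also mark platelets, whose markers summed to between 34.1 and 40.7 CPM in wild-type and between 174 and 186 CPM in KO mice. Pf4 carried that rise, at 28.0 ± 4.54 CPM in wild-type and 169 ± 6.12 CPM in KO mice (SD, n = 3), and was the only one of 3 tested to pass the threshold. Ppbp changed by -1.14 on the log2 scale (adjusted p = 0.0502) and Gp1bb by 0.75 (adjusted p = 0.0898). Gp9 and Gp1ba had at most 8 counts in any mouse, and Gp6 was at 0 in all. Itga8 had at most 16 counts and Itgb6 at most 4 in any mouse.

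Of the 4 laminin-binding chains, Itga7 and Itgb4 were higher and Itga6 and Itga3 did not pass the threshold. That is 50% higher and 0% lower, beside 23.7% and 22.3% of all rows tested. Itga6, the most abundant alpha chain, pairs with beta1 or beta4 on endothelium, nerve and epithelium. Its level was 79.7, 96.3 and 100.9 CPM in the wild-type mice and 101.8, 92.1 and 96.9 CPM in the KO mice. The groups overlapped, and the log2 fold change was 0.07 ± 0.12 (SE, adjusted p = 0.650). Itga3, which binds laminins with alpha5, had -0.04 ± 0.27 (SE, adjusted p = 0.926).

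Itga7 (chromosome 10, 128933818 to 128958282, plus strand), the laminin receptor chain of skeletal and smooth muscle, was at 23.3, 25.3 and 31.8 CPM in wild-type mice. It was at 51.6, 52.9 and 45.6 CPM in KO mice, with no overlap, and rose by 0.90 ± 0.15 on the log2 scale (SE, adjusted p = 0.00111). KO replicate 3, with the highest muscle markers, had the lowest Itga7 of the KO mice. With the muscle marker covariate and with the muscle-rich mice of each genotype left out, Itga7 stayed past the threshold. The second fit kept wild-type mice at 85.5 and 97.8 CPM of muscle markers and KO mice at 483 and 375 CPM. It therefore did not level muscle between the genotypes. The covariate, the mean log2 CPM of the muscle markers, was -0.75, 4.12 and -0.75 in wild-type mice. In KO mice it was 4.05, 3.81 and 5.59, so it was partly bound up with genotype. The part of muscle in the Itga7 change was not tested. Mettl7b on the other strand shares 9 exon bases with Itga7. Mettl7b had 61, 90 and 80 counts in wild-type and 128, 122 and 206 in KO mice. It was also higher, with a log2 fold change of 0.67 (adjusted p = 0.0362).

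Itgb4, which pairs with Itga6 in epithelium and Schwann cells, was at 2.70, 2.33 and 2.74 CPM in wild-type and 4.62, 5.56 and 4.18 CPM in KO mice. Its log2 fold change was 0.88 ± 0.29 (SE, adjusted p = 0.0354), and the call was lost when any single mouse was left out, with adjusted p up to 0.110. With all 6 mice it was also lost in DESeq2 (adjusted p = 0.0600), with no filter (0.0538), with quantile normalization (0.283) and with the muscle covariate (0.112). Schwann cell markers summed to between 303 and 321 CPM in wild-type and between 427 and 599 CPM in KO mice, with 6 of 8 higher. Epithelial markers stayed at or below 1.32 CPM in every mouse, with Krt5 and Krt14 at 0. The part of Schwann cells in the Itgb4 change was not tested.

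Itga1, the collagen IV receptor chain of vessels, smooth muscle and fibroblasts, was the only integrin outside the leukocyte chains to fall. It lies on the minus strand of chromosome 13 between 114953096 and 115101964. Its level was 23.9, 23.1 and 32.6 CPM in the wild-type mice and 9.67, 13.6 and 13.2 CPM in the KO mice. The groups did not overlap, and Itga1 fell by 1.12 on the log2 scale (SE 0.20, adjusted p = 0.00157). Pelo, which lies within Itga1 on the same strand and shares no exon bases, changed by -0.13 on the log2 scale (adjusted p = 0.467). Of the other collagen receptors, Itga10 had 0.05 (adjusted p = 0.927) and Itga11 0.31 (adjusted p = 0.611), both with overlap.

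Endothelial markers summed to between 676 and 780 CPM in wild-type and between 458 and 571 CPM in KO mice, with 4 of 10 lower and Vwf higher. Their median log2 fold change was -0.35 and turned to 0.08 with library size alone. Mural and smooth muscle markers summed to between 283 and 324 CPM and between 337 and 370 CPM, with 3 of 7 higher and 1 lower. Whether these cells bear on Itga1 was not tested.

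Itgb1, the shared partner of most matrix-binding alpha chains, was the most abundant integrin chain in every mouse. It was at 209.3, 209.2 and 186.8 CPM in the wild-type mice and 232.1, 242.1 and 226.6 CPM in the KO mice. All KO mice were above all wild-type mice, but the log2 fold change of 0.21 ± 0.10 (SE) did not pass the threshold (adjusted p = 0.116). Itga9, a receptor chain for VCAM1, osteopontin and tenascin, was at 3.45, 3.50 and 7.95 CPM in wild-type and 11.8, 7.94 and 10.4 CPM in KO mice. Wild-type replicate 3 reached the lowest KO mouse, and the log2 fold change was 1.03 ± 0.35 (SE, adjusted p = 0.0358). That call was lost when any mouse other than wild-type replicate 3 or KO replicate 2 was left out, with adjusted p up to 0.121, with quantile normalization (0.103) and with the muscle covariate (0.0786).

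Within the integrin beta chains, Itgb1 made up 85.8% ± 1.44 of the counts in wild-type and 68.7% ± 4.86 in KO mice (SD, n = 3). The share of Itgb5 was 10.3% ± 0.37 and 16.2% ± 0.85, and that of Itgb2 1.65% ± 0.78 and 11.3% ± 5.55. Such shares within a library do not depend on the scaling between libraries. The leukocyte chains without Itgad took 13.1%, 9.13% and 10.3% of all integrin counts in wild-type mice. They took 15.7%, 26.5% and 13.4% in KO mice. Itga4 was the largest of them in each wild-type mouse. All integrin chains together came to 459 ± 7.02 CPM in wild-type and 631 ± 69.8 CPM in KO mice (SD, n = 3).

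Of 10 laminin chains tested, 4 were higher and 0 lower in edgeR's test. That is 40% and 0%, beside 23.7% and 22.3% of all rows tested, and the median log2 fold change was 0.50. At an unadjusted p under 0.05, and in DESeq2, 1 chain was lower, Lamb1. The alpha chain past the threshold was Lama1, the laminin alpha chain of embryonic and some epithelial basement membranes. Lama1 (chromosome 17, 67697259 to 67822647, plus strand) was at 0 in each wild-type mouse and at 210, 64 and 333 counts in the KO mice. Its KO level was 23.1, 8.47 and 19.6 CPM, with a mean at least 49.5-fold above the mean floor of the wild-type mice (adjusted p = 0.00011). KO replicate 2 was the lowest of the KO mice, and no other counted gene overlaps Lama1 in the annotation used.

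Lama4, the main alpha chain of fat and vessels, was the most abundant alpha chain in every mouse. It was at 45.5, 40.5 and 83.6 CPM in the wild-type mice and 74.0, 71.6 and 64.8 CPM in the KO mice. Wild-type replicate 3 was the highest of all 6, and the log2 fold change of 0.31 ± 0.24 (SE) did not pass the threshold (adjusted p = 0.318). Without that mouse it was 0.69 (adjusted p = 0.00273). Lama2, the alpha chain of muscle and Schwann cell basement membranes, was at 10.9, 11.6 and 8.21 CPM in wild-type and 13.8, 19.1 and 12.5 CPM in KO mice. The groups did not overlap, but the adjusted p was 0.0697, with a log2 fold change of 0.55. Lama5 had 0.09 (adjusted p = 0.785), at between 7.54 and 12.3 CPM, and Lama3 had at most 13 counts in any mouse.

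Lama1 made up 0% of the laminin alpha counts in each wild-type mouse and 18.7%, 7.83% and 18.3% in the KO mice. Lama4 held 71.9% ± 7.65 in wild-type and 62.2% ± 3.49 in KO mice (SD, n = 3), without overlap.

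**Figure D4:**
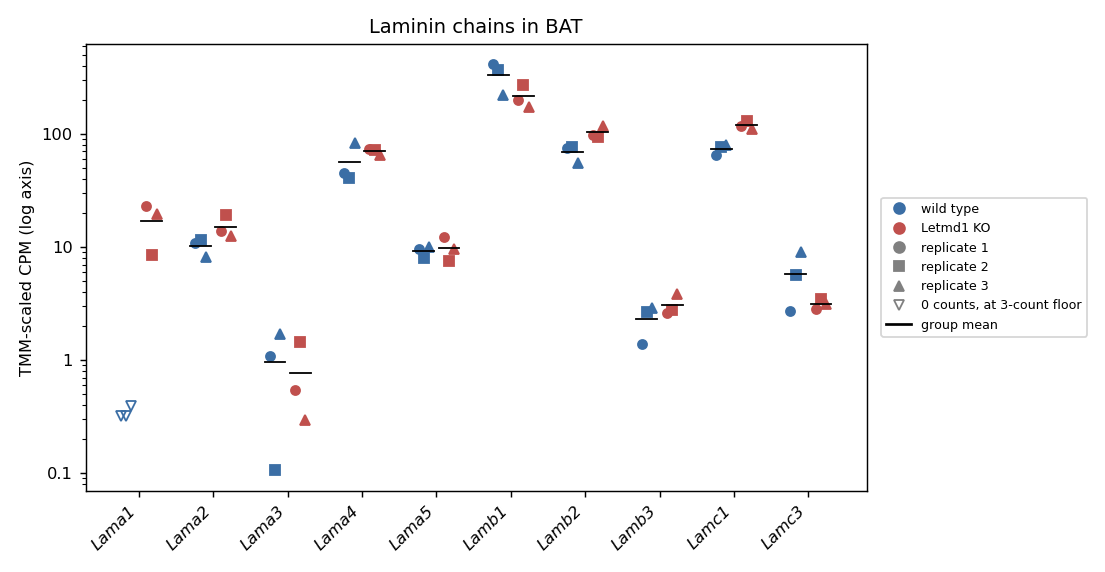
TMM-scaled CPM (log axis) of 10 laminin chains in 3 wild-type (blue) and 3 Letmd1 KO (red) mice, with the symbol shape giving the replicate number and a line at each group mean. Lama1 has 0 counts in wild type (open triangles at the floor of 3 counts) and 8.47 to 23.1 CPM in KO mice, while Lama4, Lama5 and Lamb1 overlap between the genotypes.

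The beta chains moved in different directions. Lamb1, the beta chain of most laminins and the most abundant laminin chain, was at 413, 366 and 219 CPM in the wild-type mice and 199, 272 and 175 CPM in the KO mice. The groups overlapped, and the log2 fold change of -0.63 ± 0.24 (SE) was just outside the threshold (adjusted p = 0.0544). It passed in DESeq2 (adjusted p = 0.014) and in several other fits. Lamb2 (chromosome 9, 108479736 to 108490530, plus strand), the beta chain of muscle, nerve and vessel laminins, was at 74.8, 76.2 and 55.8 CPM in wild-type and 98.0, 94.6 and 116.7 CPM in KO mice. Every KO mouse was above every wild-type mouse, with KO replicate 3 highest, and Lamb2 rose by 0.58 ± 0.15 on the log2 scale (SE, adjusted p = 0.00993). KO replicate 3 also had the highest muscle markers. With the muscle covariate the adjusted p was 0.229, and without the muscle-rich mouse of each genotype it was 0.0632. The mice left in the latter fit still differed in muscle markers between the genotypes, and the covariate was partly bound up with genotype, as given for Itga7. The part of muscle in the Lamb2 change was not tested.

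Lamb1 held 81.9% ± 2.79 of the laminin beta counts in wild-type and 66.4% ± 7.22 in KO mice (SD, n = 3). Lamb2 held 17.5% ± 2.41 and 32.6% ± 6.94. Neither share overlapped between the genotypes, although the CPM of Lamb1 did. Lamb3, of epithelial laminins, changed by 0.45 on the log2 scale (adjusted p = 0.376).

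Of the gamma chains, Lamc1, which most laminins contain, was at 65.3, 77.2 and 80.2 CPM in the wild-type mice and 117.8, 131.3 and 110.6 CPM in the KO mice. It lies on the minus strand of chromosome 1 between 153218922 and 153332786. The KO mice lay well above the wild-type mice, and Lamc1 rose by 0.69 ± 0.12 on the log2 scale (SE, adjusted p = 0.00144). Lamc3 was at 5.81 ± 3.22 CPM in wild-type and 3.14 ± 0.292 CPM in KO mice (SD, n = 3), with a log2 fold change of -0.88 (adjusted p = 0.116), and passed the threshold with quantile normalization (adjusted p = 0.0284).

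The sum of all laminin counts did not shift with the chains, at 561 ± 80.4 CPM in wild-type and 560 ± 49.0 CPM in KO mice (SD, n = 3). Lamb1 was the largest term of that sum in every mouse and had the largest drop in mean CPM.

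**Figure D5:**
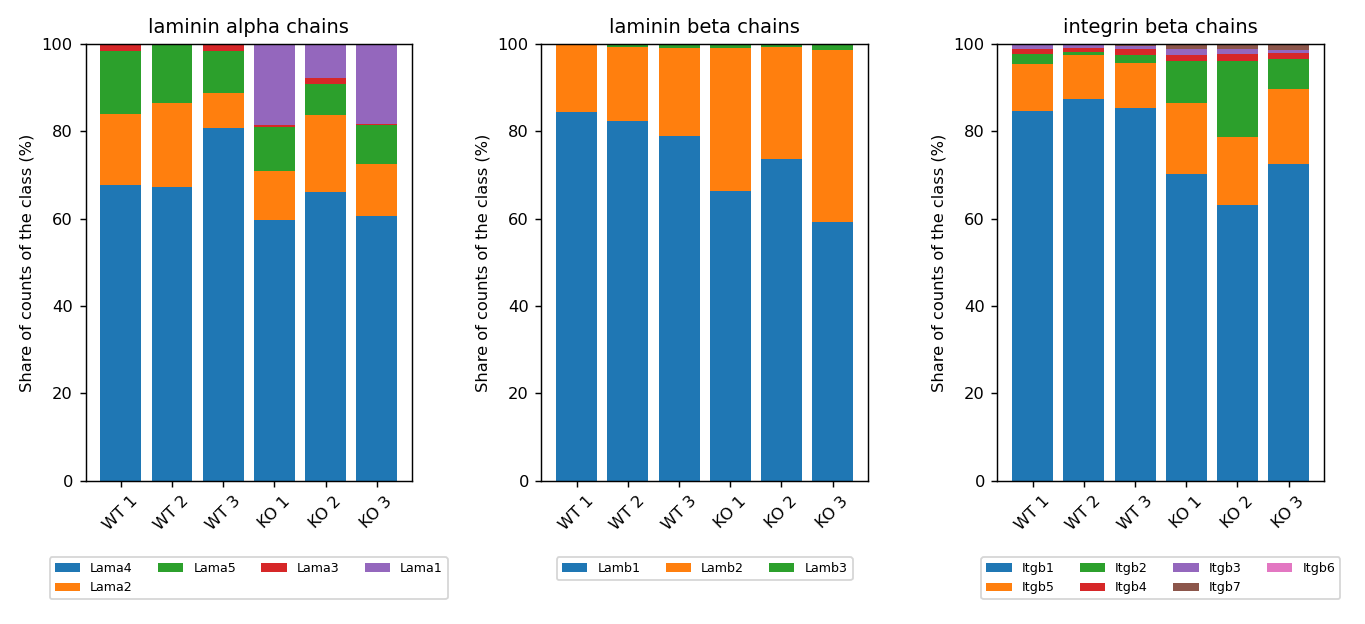
Share of each chain in the summed counts of the laminin alpha, laminin beta and integrin beta classes in each mouse (WT, wild type; KO, Letmd1 KO), as stacked bars from 0 to 100%. Lama1 appears in the KO bars alone, Lamb2 takes 32.6% of beta counts in KO against 17.5% in wild-type mice, and Itgb2 and Itgb5 widen in the KO bars.

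Proteins that act with these chains were counted in lists, to be read beside 23.7% higher and 22.3% lower of all rows tested. Of 9 basement membrane partners of laminins tested, 6 were higher (66.7%), with a median log2 fold change of 0.77. Col18a1, the collagen that releases endostatin, was at 7.83 ± 0.702 CPM in wild-type and 42.3 ± 7.43 CPM in KO mice (SD, n = 3). Its log2 fold change was 2.42 ± 0.17 (SE, adjusted p = 1.27e-05). Col15a1 rose by 1.59 ± 0.22 and Nid2, a nidogen that links laminin to collagen IV, by 1.53 ± 0.28 on the log2 scale (SE), and the rest of the 6 were Sparc, Nid1 and Hspg2. Fibroblast markers were also higher in the KO mice, at 3896 to 6697 CPM against 1382 to 1917 CPM, with 7 of 7 past the threshold. Their part in these changes was not tested.

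Of 12 RGD and matricellular ligands tested, 8 were higher (66.7%) and 1, Npnt, was lower (8.33%), with a median log2 fold change of 1.31. Fn1, the fibronectin gene, was at 18.3 ± 6.00 CPM in wild-type and 97.0 ± 5.54 CPM in KO mice (SD, n = 3) and rose by 2.39 ± 0.21 on the log2 scale (SE, adjusted p = 3.41e-05). Spp1, which encodes osteopontin, was at 0, 0.106 and 0.391 CPM in wild-type and 3.30, 130 and 1.12 CPM in KO mice. KO replicate 2 set its size, with a log2 fold change of 8.06 ± 2.26 (SE, adjusted p = 0.0165) with it and 3.69 (adjusted p = 0.0142) without it. Without wild-type replicate 3 it was 9.37, and without wild-type replicate 1 it was 7.46 and no longer past the threshold (adjusted p = 0.0600). It also missed the threshold without wild-type replicate 2 (adjusted p = 0.0538) and, at 3.76, with quantile normalization (adjusted p = 0.0649), and DESeq2 gave it no adjusted p. Mfge8, the ligand of alphaV integrins on dying cells, had a log2 fold change of 2.07 ± 0.44 (SE, adjusted p = 0.00433), and 1.21 without KO replicate 2.

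Of 6 ligands of leukocyte integrins tested, Vcam1 and Icam1 were higher (33.3%, beside 23.7% of all rows), with a median log2 fold change of 0.14. Vcam1, the ligand of alpha4beta1, was at 12.6 ± 4.39 CPM in wild-type and 44.6 ± 7.56 CPM in KO mice (SD, n = 3) and rose by 1.81 ± 0.25 (SE, adjusted p = 0.000405). Icam1, the ligand of the beta2 integrins, was at 4.401 ± 1.12 and 10.1 ± 0.648 CPM (SD, n = 3) and rose by 1.21 ± 0.25 (SE, adjusted p = 0.00341), a call lost without both muscle-rich mice (adjusted p = 0.0576). Itga4, the receptor chain for Vcam1, was lower in the same mice, as given above.

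Of 21 integrin activators and adhesion adaptors tested, 9 were higher (42.9%) and 3 lower (14.3%), with a median log2 fold change of 0.32. With library size alone 16 were higher and 0 lower, so the balance of this list rests on the scaling. Apbb1ip, which encodes RIAM, an activator of integrins through Rap1 and talin, was at 6.31 ± 1.76 CPM in wild-type and 33.1 ± 7.02 CPM in KO mice (SD, n = 3). Its log2 fold change was 2.39 ± 0.23, and that of the focal adhesion protein Zyx was 1.87 ± 0.15 (SE). Parvg, the parvin of white blood cells, rose by 1.58 ± 0.48 (SE, adjusted p = 0.0232), a call lost without wild-type replicate 2 (0.059), KO replicate 1 (0.0788) or KO replicate 2 (0.0507). Rap1b, Fermt2, Fermt3, Ptk2, Tln1 and Bcar1 were also higher, and Ptk2b, Lims2 and Ilk were lower.

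Of 10 laminin receptors that are not integrins, 3 were higher and 3 lower, with a median log2 fold change of 0.21. That is 30% each, near the 23.7% and 22.3% of all rows tested. With library size alone, 7 were higher and 2 lower. Dmd, which encodes dystrophin, was at 6.42 ± 2.25 CPM in wild-type and 34.2 ± 5.66 CPM in KO mice (SD, n = 3) and rose by 2.43 ± 0.24 (SE, adjusted p = 6.33e-05). Sdc1, a syndecan, rose by 2.11 ± 0.48 (SE), with an adjusted p of 0.0059, or 0.0669 with the muscle covariate, whereas Sdc4 fell by 1.76 on the log2 scale (SE 0.34). Sgcb was higher and Sgcd and Dag1, the dystroglycan gene, were lower, so this list had no common direction.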

How the data were processed

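RNA of BAT from 3 wild-type and 3 Letmd1 KO mice was analysed. The authors built QuantSeq 3′ libraries, aligned reads with Bowtie2, counted unique and multiple alignments on genes with bedtools, and deposited these read counts as whole numbers with no normalization, per the file headers and the study's methods. The submitters' processing notes name mm10. The annotation and use of strand are not given in the sources used here. The quantile normalization the study names is not in these counts.

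Counts were tested in R 4.3.3 with edgeR 4.0.16 (quasi-likelihood test, TMM scaling, default filter: at least 10 counts, and 15 in total, Benjamini-Hochberg adjustment over 12995 rows, threshold 0.05). TMM factors were 0.852 to 0.886 for wild-type and 1.13 to 1.17 for KO mice, so scaling can shift every fold change. Replicates of a genotype all differed beyond sampling noise. Positions came from GENCODE vM21 on GRCm38 and promoter letters from RefSeq GRCm38.p6. The members, gene lists and tests were chosen with earlier results of these data known. Members are named, except 1 that is counted but not reported here, with values per mouse for those past the threshold and the most abundant of each family, and from each pathway list the called genes with the 3 largest changes and a mean of at least 20 counts. Alternatives used limma 3.58.1, DESeq2 1.42.0, other filters, scaling, a muscle covariate, a replicate block and leaving out mice. The steps were tested on simulated data. A score over 3 against 3 mice cannot give an exact p below 0.1, and none was tested.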

Additional observations from a re-analysis of the deposited data

How the results depend on the processing

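Library size alone moved the median log2 fold change of all rows to 0.45, and then 15 integrin chains were higher and 3 lower, 6 laminin chains were higher and 0 lower, and 9 other integrins were higher and 1 lower. In each alternative that leaves out 1 mouse, 8 to 9 integrin chains were higher and 3 lower, 4 to 5 laminin chains were higher, and 0 to 1 were lower. Of the laminin chains 1 was lower with DESeq2, no filter and the replicate block, which was Lamb1, and 1 with quantile normalization, which was Lamc3. The leukocyte difference of medians was 1.52 with quantile normalization and 3.21 with a mean of at least 50 counts. With that filter, which leaves Itgae untested, 1 leukocyte chain was lower, and with the muscle covariate, where Itgae missed the threshold, also 1. Of all rows, 5978 were called, and 3555 with the muscle covariate, 3889 without both muscle-rich mice and 3939 at an adjusted p under 0.01. With the muscle covariate the log2 fold change of Itgb2 was 4.84, of Itgam 3.13 and of Itgax 7.803. With quantile normalization it was 1.43 for Itgb7, 1.37 for Itgal, 3.62 for Itgax and -2.36 for Itgae. Apart from the calls named beside each chain, the causes were not tested.

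Some chains that were not past the threshold changed sign. Itga3 had log2 fold changes of 0.39 with library size alone, 0.019 with a mean of at least 50 counts, 0.083 with the muscle covariate, and from -0.14 to 0.14 with each mouse left out in turn. With quantile normalization, Lamb3 had -0.085, Itgav -0.092, Lama5 -0.23, Itga10 -0.51 and Itga11 -0.50. With the muscle covariate Itga11 had -0.055, and without both muscle-rich mice Itga11 had -0.13 and Itga10 -0.44. With each mouse left out in turn, Itga6 ranged from -0.030 to 0.13, Itgav from -0.094 to 0.25, Lama5 from -0.10 to 0.23, Itga10 from -0.21 to 0.33 and Itga11 from -0.16 to 0.49. The median of the collagen-binding chains, 0.05, therefore also changed sign (-0.51 with quantile normalization), as did that of the laminin beta chains (-0.085).

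The labels give both genotypes replicate numbers 1 to 3, but the deviations of same-numbered mice correlated by 0.07, -0.11 and -0.09, so the numbers were not taken as pairs. With the replicate block, 9 integrin chains were higher and 3 lower, and 5 laminin chains were higher and 1 lower, with Itgb4 lost and Lama2 and Lamb1 gained. Counts of a few reads limit Itgb7, Itgal, Itgae and Itga5, and Itgax in wild-type mice.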
